A study of Saccharomyces cerevisiae with 6 samples.

Results

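The genes described here are MET4, MET28, MET31, MET32, CBF1 and MET30, which encode the transcriptional activator of the sulfur amino acid pathway in budding yeast, its DNA-binding partners and the ligase subunit that restrains it. Each gene was placed by its midpoint in a bin of 10 kb, so that 6 of 1216 nuclear bins were examined, and each bin also holds other genes. Hi-C, which ligates and sequences pairs of DNA fragments that lie close together in fixed nuclei, was measured in 2 replicates of strain yMD291 grown in synthetic medium without methionine. The labels describe 6 samples, and the other 4 were not analysed here. There is therefore no comparison between conditions, and each gene bin is set against the other bins of the same maps.

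Strain yMD291 is MATa with the markers his3-11,15, trp1-1, ura3-1, can1-100 and ade2-1 and an auxotrophic allele of LEU2. It also carries tor1-1, fpr::NAT and bar1. At HIS3 it expresses tetR-mCherry and LacI-GFP, and at ADE2 LacI and tetR, all from the REV1 promoter. Chromosome XV, which holds none of the genes described, carries LacO repeats (position 497047) and TetO repeats (position 834487). Both maps come from this single strain, and the study's methods call its sequencing replicates biological. The maps hold 3760159 contacts in replicate 1 and 3518507 in replicate 2. A pair of bins on different chromosomes received 1.52 and 1.41 contacts on average, so single pairs between chromosomes are known only to within a few contacts.

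Met4 is a bZIP activator that does not bind DNA stably on its own. It is brought to promoters by Cbf1, a basic helix-loop-helix protein, and by the related zinc finger proteins Met31 and Met32. Met28 is a small bZIP cofactor that stabilises the complexes. Met30 is the F-box subunit of an SCF ubiquitin ligase that modifies Met4 when methionine is plentiful, and without methionine the activator is released. In interphase yeast nuclei the centromeres are gathered near the spindle pole body, so that loci at a like distance from their centromeres tend to meet.

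Some of these genes have upstream the binding motifs of the proteins that they encode, and the sites are shown because they show which of the genes carry them upstream. The 300 bases before each start codon were searched on both strands in the R64 reference (sacCer3) of RefSeq. The Cbf1 motif CACGTG was found before 3 of the 6 genes, against 214 of 6002 genes (3.57%) and 10 of 29 genes of the methionine pathway. The Met31/Met32 core CTGTGGC, which in both sites printed below lies on the opposite strand to the gene, was found before 2 of the 6, against 121 of 6002 genes (2.02%) and 10 of 29 pathway genes. Both motifs occurred before MET28 and MET30, CACGTG alone before CBF1, and neither before MET4, MET31 or MET32. A match is a description of the sequence, and binding was not measured. Below, capitals mark the motif, and each stretch reads 5′ to 3′ along the strand of its gene.
MET28 (chrIX:384316-384355, minus strand): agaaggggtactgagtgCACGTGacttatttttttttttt
CBF1 (chrX:548574-548613, plus strand): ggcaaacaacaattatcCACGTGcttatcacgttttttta
MET30 (chrIX:268457-268496, plus strand): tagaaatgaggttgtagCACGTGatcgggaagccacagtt
MET28 (chrIX:384381-384419, minus strand): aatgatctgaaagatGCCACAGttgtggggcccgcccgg
MET30 (chrIX:268471-268511, plus strand): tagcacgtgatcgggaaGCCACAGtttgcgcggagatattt
The stretches of MET30 overlap, and in this promoter the motifs begin 177 and 163 bases before the start codon.

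MET31 and MET32 encode related proteins, so reads from one could be taken for the other if their DNA were alike. The longest run of bases that their coding sequences share was 12, and their bins shared 0 words of 50 bases. The run is shown in capitals with its flanks.
MET31 (chrXVI:480808-480849, plus strand): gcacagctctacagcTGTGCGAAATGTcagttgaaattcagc
MET32 (chrIV:964242-964283, minus strand): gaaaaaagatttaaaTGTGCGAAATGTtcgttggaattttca

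The 6 genes lie on 5 chromosomes, at very different distances from the centromere. MET28 (chrIX:383556-384119, right arm) was the nearest at 28.2 kb and MET32 (chrIV:963990-964565, right arm) the farthest at 515 kb. MET31 (chrXVI:480535-481068, left arm) lay at 75.2 kb, MET30 (chrIX:268651-270573, left arm) at 86.1 kb, CBF1 (chrX:548759-549814, right arm) at 113 kb and MET4 (chrXIV:427735-429753, left arm) at 200.1 kb. MET30 extends past the end of its bin at position 270000. DpnII, the enzyme of this Hi-C, cuts at GATC. The bin of MET31 has 19 such sites and that of CBF1 has 21, against a median of 30. MET31 held 3981 and 3726 contacts in the maps and CBF1 3984 and 3663, against medians of 5447 and 5077 per bin. Contacts were balanced for such differences by the authors, but fewer contacts leave MET31 and CBF1 with a larger counting error. In the bin of CBF1, 4.46% of the 50-base words occur elsewhere in the reference. In that of MET31 the share was 0.38%, and in the other 4 bins 0%.

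The share of a bin's balanced signal that lies between chromosomes separated the genes widely, and MET28 stood highest. Its bin had 46.4% in replicate 1 and 46.0% in replicate 2. MET30 had 39.9% and 38.9%, CBF1 35.8% and 36.1%, MET31 35.0% and 33.3%, MET4 32.7% and 32.3%, and MET32 26.0% and 23.4%. The order was the same in both maps, and the values of no neighbours in it overlapped. The mean was 36.0 ± 0.21% for CBF1, 34.2 ± 1.18% for MET31 and 32.5 ± 0.29% for MET4 (SD, n = 2), so that these 3 lie close together relative to the spread of MET31. No test was made, because each bin has 1 value per map.

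**Figure D1:**
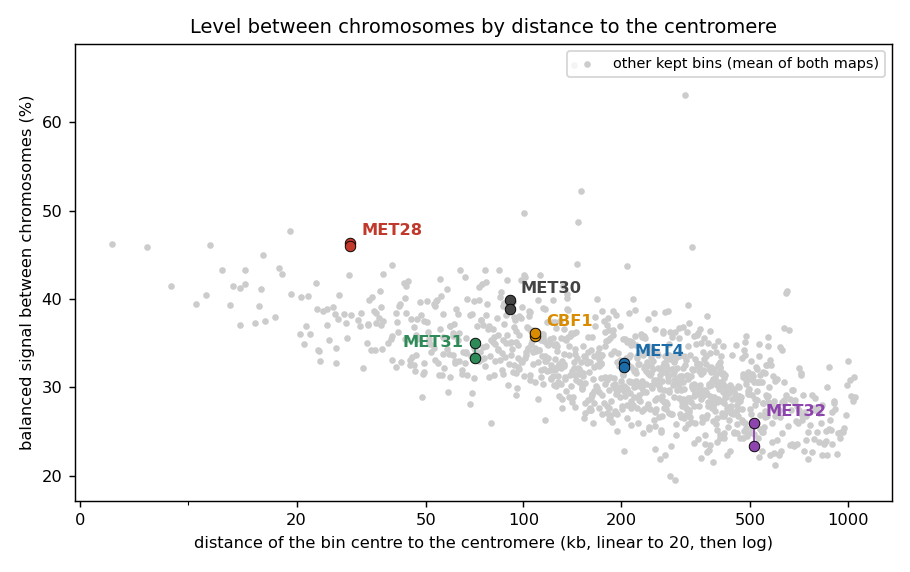
The share of balanced signal between chromosomes (%) is plotted against the distance of the bin centre to the centromere (kb), with 1 coloured point per map for each gene bin and grey points for the other kept bins. MET28 lies at 46.4% and 46.0%, with 1 of the 96 bins within 15 kb of its centromere distance higher, and MET32 lies at the low end at 26.0% and 23.4%.

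The level of MET28 was high even for a locus near a centromere. Among all 96 bins that lie 20 to 50 kb from a centromere and away from chromosome ends, none had a higher level, and their median was 37.1%. Among 96 bins within 15 kb of the same centromere distance, 1 was higher. The bins around it were lower. The mean over both maps was 46.2% for MET28, against 38.0% in the bin 10 kb nearer to the centromere and 33.1% in the bin 10 kb farther out. The bins 20 and 30 kb in the direction of the centromere had 39.7% and 40.3%. On chromosome IX, 1 of 42 bins was above MET28. Ranks within 15 kb were added after seeing the data.
Of 84 bins within 15 kb of the centromere distance of MET30, 12 were higher, and its neighbour 10 kb farther from the centromere had 42.7%. CBF1 (26 of 80 higher), MET4 (20 of 60) and MET31 (52 of 89) lay in the body of the bins at their distance. MET32 was low, with 22 of 24 bins higher. It stood out less within its own chromosome IV, where 124 of 152 bins were higher and the median of kept bins was 27.0%. In its class of centromere distance 121 of 153 bins were higher.

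Which loci a gene bin meets on other chromosomes followed its own place on the arm. Signal with partner bins in 7 classes of centromere distance was set against the mean signal of the gene bin between chromosomes, as log2, and tested with limma over both maps. Of 42 values, 19 were called higher and 20 lower at an adjusted p below 0.05. The background was nearly as high: 38.7% of all 7602 such values in the genome were called higher and 47.1% lower, so these counts are no property of the 6 genes, and the sizes are given instead. Of 64 bins 0 to 20 kb from a centromere, 23 passed the filter on bins described under processing, so that class rests on these alone. MET28 exceeded its own mean 5.44-fold and 5.15-fold in the maps with partners 0 to 20 kb from a centromere (log2 2.39 ± 0.14 SE, limma adjusted p = 3.25e-06). With partners over 500 kb away it fell to 0.194 and 0.172 of its mean (log2 -2.44 ± 0.05, adjusted p = 9.15e-08). MET32 showed the opposite order, at 0.106 and 0.208 of its mean with partners 0 to 20 kb from a centromere (log2 -2.60 ± 0.30, adjusted p = 0.000104) and 1.54 and 1.46 with those over 500 kb away (log2 0.58 ± 0.09, adjusted p = 0.000514).

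**Figure D2:**
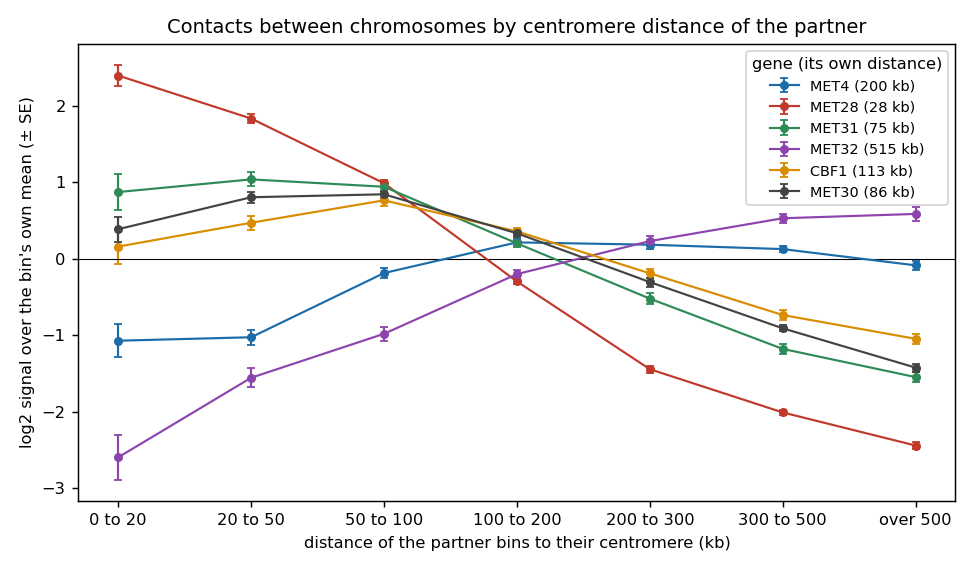
Log2 of the signal over the bin's own mean between chromosomes, with the standard error of the limma fit over 2 maps, is plotted for each gene bin against the centromere distance of the partner bins (kb). MET28 runs down from 2.39 at 0 to 20 kb to -2.44 over 500 kb, MET32 runs up from -2.60 to 0.58, and MET4 stays between -1.07 and 0.21.

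MET31, CBF1 and MET30, which lie 75.2 to 113 kb from their centromeres, all peaked with partners 20 to 100 kb from a centromere. MET31 was highest with partners at 20 to 50 kb (log2 1.04 ± 0.09), and MET30 (0.84 ± 0.05) and CBF1 (0.76 ± 0.07) with those at 50 to 100 kb. MET4 had the flattest course, with its highest value of 0.21 ± 0.05 at 100 to 200 kb and -1.07 ± 0.21 at 0 to 20 kb. Most of these values lay well inside those of bins within 15 kb of the same distance. Nearer to the edge, CBF1 had 6 of 80 such bins higher with partners at 0 to 20 kb, 8 higher at 50 to 100 kb and 8 lower at 300 to 500 kb. MET30 had 8 of 81 such bins lower with partners over 500 kb away.

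Other bins on the arms had contact profiles between chromosomes much like those of 5 of the genes, and less so for MET4. Likeness was the Pearson correlation over windows of 50 kb on chromosomes that hold neither bin, given as a description, because the windows share libraries and the gradient from the centromere. MET28 was most like the bins of PPZ1 and TAF11 (XIII, r = 0.97) and of ERG11 and SOD2 (VIII, r = 0.97, over 218 and 226 windows), and its 20 most similar bins lay 16.2 to 36.7 kb from a centromere. MET31 was most like the bins of RPS11A and NSI1 (IV, r = 0.87) and of PEX9 and STB4 (XIII, r = 0.86). MET30 was most like the bins of UTR4 and RAD23 (V, r = 0.85) and of HEK2 and SHE1 (II, r = 0.84). The bin most like CBF1 was that of PIG2 and AGE2 (IX, r = 0.74), which is the bin next to MET30, and then that of UTR4 and RAD23 (r = 0.73). The 20 bins most like CBF1 lay 56.9 to 106 kb from a centromere, against 109 kb for the centre of its own bin. MET32 was most like the bins of TEA1 and UBC11 (XV, r = 0.78) and of NIT3 and LUG1 (XII, r = 0.76). MET4 matched no bin closely, and its best were SDH1 with AVT3 (XI) and VTC5 with ILT1 (IV), both at r = 0.55. Among the genes themselves, r was highest for MET31 with MET30 (0.78) and lowest for MET31 with MET32 (-0.72), which lie 75.2 and 515 kb from their centromeres.

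By partner chromosome, contacts were set against those expected from the centromere distances and from the level of the gene bin itself. Of 89 values, 6 were called higher and 13 lower by limma, against 3.89% higher and 9.62% lower among all 16244 values in the genome. Chromosome XII, which carries the ribosomal DNA, was called lower for MET4, MET28, MET31, CBF1 and MET30, and 31.1% of all bins tested against XII were called lower. The size of the decrease in MET30, where 115 and 124 contacts were seen against 157 and 148 expected (log2 -0.35 ± 0.08, adjusted p = 0.000158), was exceeded by 19 of 75 bins at a like centromere distance.
MET28 was called higher with the small chromosomes I, III and VI. It had 149 and 151 contacts with VI against 115 and 109 expected (log2 0.42 ± 0.09, adjusted p = 0.000131), 124 and 138 with I against 103 and 98.7 (0.37 ± 0.10, adjusted p = 0.00214), and 136 and 130 with III against 113 and 107 (0.27 ± 0.09, adjusted p = 0.0305). Of the bins within 15 kb of its centromere distance, 7 of 77 were higher with VI, 7 of 75 with I and 4 of 77 with III. MET32, which lies far from its centromere, was called lower with III, V, VI and IX, where 36.1%, 0.679%, 22.5% and 6.86% of all bins were called lower. With III it had 4 and 11 contacts against 19.2 and 16.4 expected (log2 -1.34 ± 0.28, adjusted p = 6.52e-05), and with V, at 46 and 37 against 58.3 and 49.3, its value was the lowest of 23 bins at a like distance (log2 -0.37 ± 0.14, adjusted p = 0.0490).
CBF1 was called higher with chromosomes I and IX, where 6.94% and 7.24% of all bins were called higher. With I it had 39 and 40 contacts against 24.2 and 23.1 expected (log2 0.73 ± 0.23, adjusted p = 0.0171), and 6 of 77 bins at a like centromere distance were higher. With IX, the chromosome of MET28 and MET30, it had 72 and 76 against 52.7 and 49.9 (log2 0.52 ± 0.14, adjusted p = 0.00346), and 1 of 77 bins at a like centromere distance was higher. MET30 was called higher with XVI, the chromosome of MET31, at 200 and 206 contacts against 174 and 163 (log2 0.27 ± 0.07, adjusted p = 0.00373), the highest of 75 such bins. MET4 was also called lower with IV and VI, and CBF1 with IV and VII (log2 -0.60 to -0.17 for these 4). Of all bins, 15.1%, 22.5% and 6.90% were called lower with IV, VI and VII. Among bins at a like centromere distance, 7 of 53 were lower than MET4 with IV and 11 of 58 with VI. For CBF1, 23 of 74 such bins were lower with IV and 2 of 74 with VII.

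**Figure D3:**
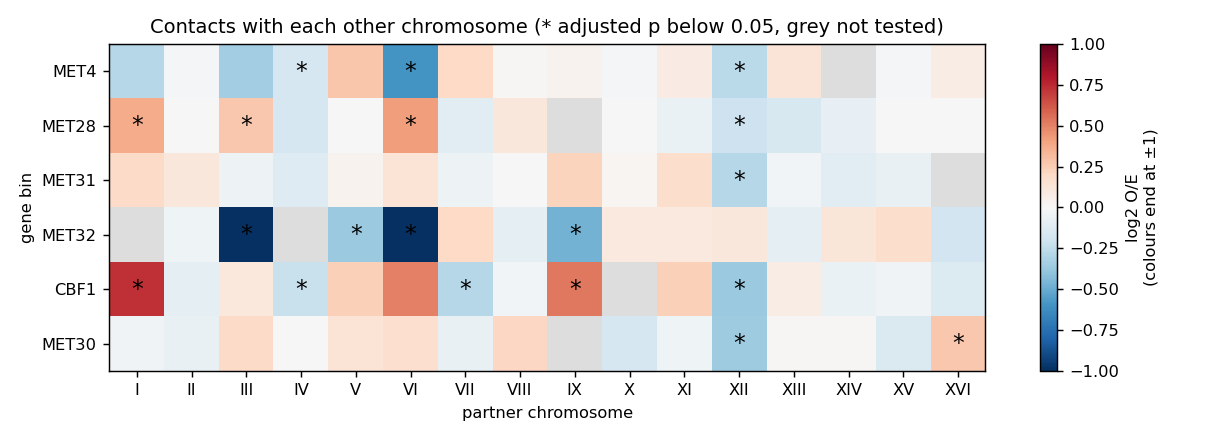
Each cell is the log2 of observed over expected contacts of a gene bin (rows) with a whole partner chromosome (columns), over both maps, with an asterisk where the limma adjusted p was below 0.05 and grey where no value was tested. Column XII is blue and carries an asterisk in 5 of the 6 rows, and the lowest asterisked value is MET32 with III at -1.34.

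Contacts among the 6 gene bins were more frequent in sum than expected, but no single pair passed the adjusted threshold at this depth. Over the 14 pairs on different chromosomes, 52 contacts were counted and 35.5 were expected from centromere distance and chromosome ends. Observed over expected (O/E) was 1.53 and 1.40 in the maps (mean 1.46 ± 0.09 SD, n = 2), with an exact 95% Poisson interval of 1.09 to 1.92 on the pooled value, which covers counting error only. Of the pairs, 6 of 14 were above 1 in both maps and 2 below, against 20.5% and 34.1% of all pairs between chromosomes. The sum moved with the level of the bins: against all bins on other chromosomes O/E was 1.18 for MET28, 1.09 for MET30, 1.08 for CBF1, 1.03 for MET4, 0.985 for MET31 and 0.946 for MET32. With the expectation scaled to both bins' own level, a setting chosen after seeing the data, O/E was 1.32 and its interval 0.986 to 1.73. Over blocks of 3 by 3 bins around the pairs O/E was 1.09.
None of the 14 pairs was called by the two-sided exact Poisson test with Benjamini-Hochberg adjustment over all 544303 pairs, of which 0.045% were called higher and 0% lower. No pair had a robust z above 3 in both maps either, and 2 pairs had an unadjusted p under 0.05. A pair expected at 2 contacts would have needed 11 for a call. The pairs expected 0.843 to 6.16 contacts each, at which even a pair with no contacts would not have been called lower.

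Of the activator with its cofactor, MET4 with MET28 had 3 contacts in each map against 1.04 and 0.957 expected, which is a pooled O/E of 3.0 (95% interval 1.10 to 6.53, exact Poisson p = 0.0332, adjusted p = 1). CBF1 with MET30 had 2 and 6 contacts against 1.63 and 1.54 (pooled O/E 2.52, interval 1.09 to 4.97, exact Poisson p = 0.0320, adjusted p = 1). Its excess came mostly from replicate 2. MET4 with MET30, the activator with its ligase subunit, had 2 and 4 contacts against 1.40 and 1.34 expected, and MET28 with CBF1 had 3 in each map against 1.38 and 1.29. The related genes MET31 and MET32 had 1 and 0 contacts against 0.450 and 0.411 expected. MET4 with MET31 had 0 and 1 contacts against 0.95 and 0.882, and MET4 with MET32 had 1 in each against 1.48 and 1.35. The highest pooled O/E, 3.56, belonged to MET28 with MET32, but all 3 contacts were in replicate 1 and its interval was 0.734 to 10.4. The other 6 pairs had pooled O/E of 0.649 (MET28 with MET31) to 1.70 (MET4 with CBF1), with intervals that include 1.

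**Figure D4:**
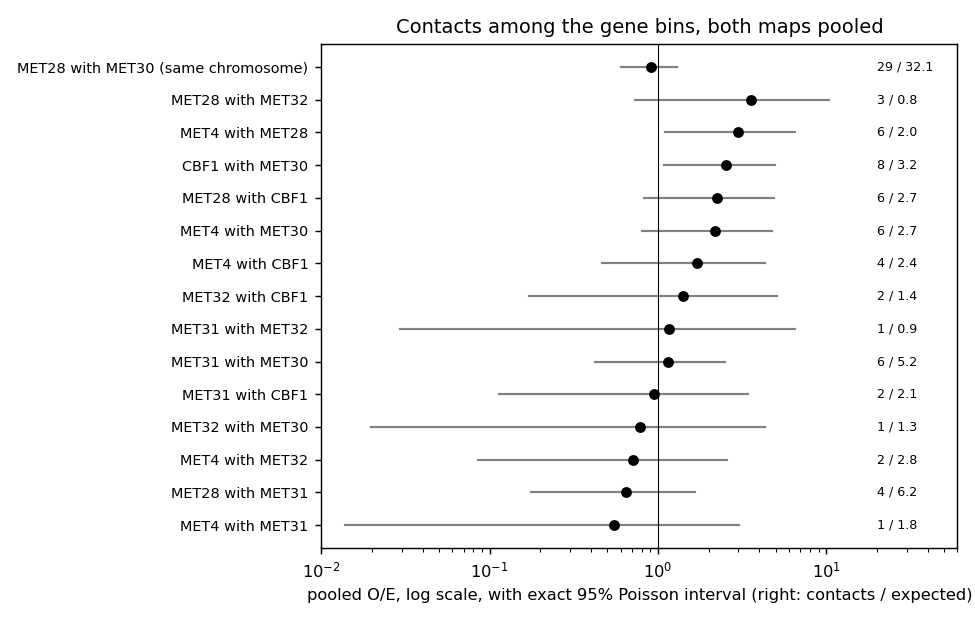
Pooled O/E (log axis) is plotted for each pair of gene bins with its exact 95% Poisson interval, and contacts over expected contacts stand at the right. The intervals of 12 of the 14 pairs on different chromosomes include 1, and those of MET4 with MET28 and of CBF1 with MET30 begin at 1.10 and 1.09.

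MET28 and MET30 are the only pair on 1 chromosome, on opposite arms of IX and 120 kb apart by bin. They had 14 and 15 contacts against 16.3 and 15.8 expected at this distance (log2 O/E -0.14 ± 0.26 SE, limma adjusted p = 0.719), and lay above 44.0% of 839 pairs at the same distance. With the expectation split by same and opposite arms the pair was not called (log2 -0.43 ± 0.24, limma adjusted p = 0.146). With a balance made from contacts between chromosomes alone the pair was called lower (log2 -0.91 ± 0.21, adjusted p = 0.000479).

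Within their chromosomes, all genes but MET31 met 1 adjacent bin less often than expected at that distance, most so MET28 and CBF1, and MET31 met 1 more often. Such values were common for most of these genes. Of 1018 pairs of adjacent bins, 300 were lower than that of MET4, 209 than that of MET32 and 131 than that of MET30. The pair of MET31 had 111 of 1018 higher. Of 114 tested pairs with a gene bin, 11 were called higher and 24 lower by limma, close to the 13.3% higher and 21.8% lower among all 11298 pairs within chromosomes. With the expectation split by same and opposite arms, 8 of 119 were called higher, against 12.8% of all 11318 pairs under that setting. With the balance from contacts between chromosomes alone, 68 of 129 (52.7%) were called lower, against 33.6% of all 11788 pairs under that balance.
The smallest adjusted p was between MET28 and its neighbour 10 kb farther from the centromere, which holds FLO11, a cell wall flocculin gene with internal repeats, and MRS1. There were 454 and 445 contacts against 795 and 740 expected (log2 O/E -0.77 ± 0.03, adjusted p = 8.70e-111), and 15 of 1018 pairs of adjacent bins were lower. In the FLO11 bin 11.4% of the 50-base words occur elsewhere in the reference. The part of these repeats in the result was not tested. Contacts of MET28 with the opposite arm were high at 50 kb (PDR11 and TIR3, 131 and 92 against 75.2 and 68.9, log2 0.60 ± 0.12, adjusted p = 5.12e-06), 70 kb and 80 kb. Of pairs at these distances, 30 of 935, 86 of 905 and 79 of 878 were higher still. The bin at 150 kb was called lower (MAM33 and RPS24B, 12 and 3 against 12.6 and 11.5, log2 -0.92 ± 0.31, adjusted p = 0.010), but the decrease came from replicate 2. Of 151 pairs at that distance, 26 were lower. Over the whole opposite arm beyond 30 kb, MET28 had an O/E of 1.09 and 0.924, above 57.5% of 80 bins of its own distance class. On its centromere side the 3 nearest bins did not pass the filter on partners, although they held 4147 to 5704 contacts in replicate 1 and 3746 to 5396 in replicate 2. Taken as deposited, MET28 met the bin 10 kb nearer to the centromere at an O/E of 0.813 and 0.856, the one 20 kb away at 1.07 and 1.10, and the one 30 kb away, which holds the centromere, at 0.712 and 0.669.

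**Figure D5:**
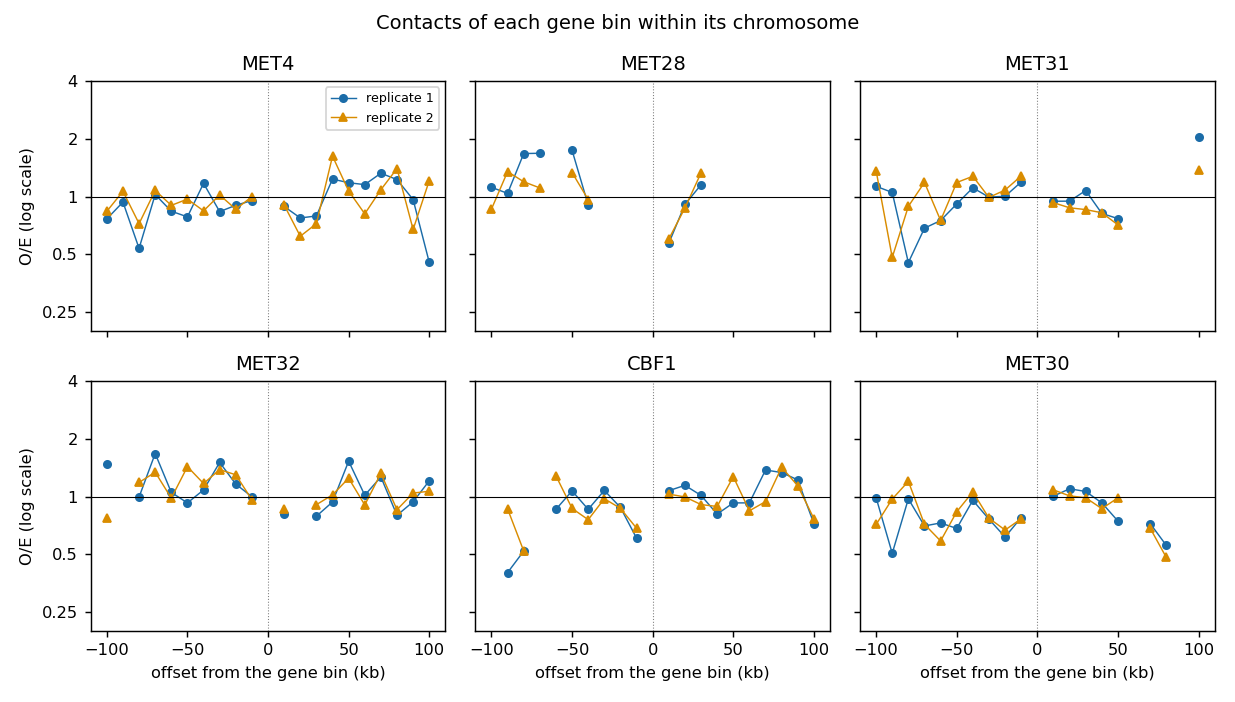
O/E within the chromosome (log axis) is plotted against the offset from each gene bin (kb) for replicate 1 (circles) and replicate 2 (triangles), with gaps where a bin did not pass the filter. At MET28 the offset of 10 kb falls to 0.571 and 0.601, and at MET30 all offsets from -10 to -30 kb lie below 1 while those at 10 and 20 kb lie above it.

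MET30 had few contacts on its telomere side. With the bins 10, 20 and 30 kb to the left it had 492 and 481, 145 and 149, and 120 and 115 contacts, at O/E of 0.773, 0.642 and 0.767 over both maps, all called lower (adjusted p = 2.14e-21, 1.77e-20 and 2.39e-05). Of pairs at these distances, 131 of 1018, 30 of 996 and 139 of 972 were lower still. To the right, O/E at the same offsets was 1.04, 1.06 and 1.03, and none was called. Farther away it was called lower with the bins 50, 60 and 70 kb to the left and 70 and 80 kb to the right, and higher with that of DAL2 and DCG1 150 kb to the right, beyond MET28 (19 contacts in each map against 11.2 and 10.6). Contacts that pass over the MET30 bin, between bins up to 50 kb apart on either side, were at an O/E of 0.645 and 0.632, and 1.02% of 784 bins had a lower value (median 0.988). This measure does not use the contacts of the MET30 bin itself. For MET4, MET31 and CBF1 it was 0.973, 1.03 and 1.02, and for MET28 and MET32 it was not available because neighbours did not pass the filter.
CBF1 also had low contacts with 1 neighbour, the bin of RAD7 and BFA1 10 kb nearer to the centromere, at 266 and 263 against 438 and 384 expected (log2 -0.63 ± 0.05, adjusted p = 8.39e-38), where 47 of 1018 adjacent pairs were lower. With the opposite arm of chromosome X beyond 30 kb, CBF1 had an O/E of 1.83 and 1.54, above 96.2% of 1040 bins and 91.2% of 215 bins of its own distance class. Its highest far-cis bins lay 250 kb (PRY1 and PRY3, 14 and 12 contacts, O/E 3.18 and 2.84), 190 kb and 260 kb away, and the one at 190 kb shares 138 words of 50 bases with the CBF1 bin.
MET4 was lower with bins on both sides. Towards the telomere these lay at 20, 80 and 120 kb (log2 -0.18, -0.67 and -0.77, adjusted p = 0.0120, 0.00485 and 0.0449). Towards the centromere they lay at 10, 20, 30, 110 and 130 kb, among them that of RAS2 and PLS1 at 20 kb (176 and 131 against 227 and 211, log2 -0.53 ± 0.07, adjusted p = 1.40e-13), and MET4 was higher with that of TCB2 and SNN1 at 40 kb (89 and 105 against 72.1 and 64.6, log2 0.50 ± 0.12, adjusted p = 0.000352). Its largest decrease was with the bin of COX5A and COG5 at 110 kb (7 and 5 against 15.7 and 14.4, log2 -1.28 ± 0.27, adjusted p = 1.81e-05). Of 996 pairs 20 kb apart, 265 were lower than MET4 towards the telomere and 52 lower than MET4 with RAS2 and PLS1. Of 635 pairs 110 kb apart, 36 were lower than MET4 with COX5A and COG5. MET31 was higher with the bin of SSN3 and MRX11 beside it (628 and 644 against 527 and 502, log2 0.31 ± 0.04, adjusted p = 8.18e-12) and lower with that of TAF3 and RET3 at 50 kb (log2 -0.43 ± 0.17, adjusted p = 0.0387). Of 935 pairs 50 kb apart, 140 were lower than the latter. Past the centromere, at 110 to 200 kb to the right, MET31 had an O/E of 1.58 and 1.98. With the opposite arm beyond 30 kb it had 1.30 and 1.39, above 56.6% of 129 bins of its own distance class. MET32 was higher with bins 20, 30 and 70 kb towards its centromere, most with RTN1 and LYS4 at 30 kb (154 and 126 against 102 and 91.1, log2 0.53 ± 0.10, adjusted p = 3.61e-06), and higher with that of DON1 and TLD1 at 50 kb on the other side (log2 0.46 ± 0.15, adjusted p = 0.00983) and lower with its neighbour on that side (log2 -0.26 ± 0.04, adjusted p = 5.92e-09).

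Of 6066 pairs between a gene bin and another chromosome, 4 (0.0659%) were called higher by the exact Poisson test, a share near the 0.045% of all pairs, so the count is no result about the 6 genes. The 4 pairs are given as single values, and 3 of them joined MET28 to bins 19.4 to 50.6 kb from a centromere. MET28 met the bin of ERG11, of ergosterol synthesis, and SOD2, the mitochondrial superoxide dismutase (VIII, 19.4 kb from the centromere), with 27 and 18 contacts (O/E 3.11 and 2.27, adjusted p = 7.04e-05), that of RIM101 and SNF6 (VIII, 50.6 kb) with 17 and 16 (2.51 and 2.45, adjusted p = 0.0214) and that of HRD1, a ubiquitin ligase of the endoplasmic reticulum, and HTZ1, the histone variant of H2A (XV, 21.6 kb), with 18 and 17 (2.32 and 2.35, adjusted p = 0.0343). MET4 met the bin of GPP2 and THO1 (V, 133 kb) with 9 and 6 (4.93 and 3.57, adjusted p = 0.0234). These 4 pairs shared 0 words of 50 bases. The expectation was not scaled to the level of MET28 itself, which was 1.18 times that of its class.
Among bins with at least 5 contacts in all and an O/E above 1 in both maps, which left 75 to 182 bins per gene, the highest by mean O/E was the called bin for MET4 and was not called for the other genes. The minimum itself sets how few contacts such bins can have. They were the bins of COS4 and DDI3 (VI) for CBF1 (4 and 2 contacts), SCM4 and FMP48 (VII) for MET32 (2 and 3), RHO5 and RPS3 (XIV) for MET31 (2 and 3) and IQG1 and CIN2 (XVI) for MET30 (2 and 3). For MET28 it was a bin of XII 314 kb from the centromere (2 and 4), which was also among the 3 highest of MET30 (2 and 4). Adjusted p was 0.654 to 1 for these 5.

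Genes of methionine uptake and metabolism, many of them targets of Met4, gave no called pair with the 6 gene bins. Over 153 pairs of a gene bin with the bins of 28 pathway genes on other chromosomes, 500 contacts were counted against 455 expected, an O/E of 1.10 in both maps (mean 1.10, n = 2). No pair was called by the exact Poisson test or by z, and 9 had an unadjusted p under 0.05, which 3.31% of all pairs between chromosomes also had. Of the pairs, 37 were above 1 in both maps and 55 below, with a median O/E of 1.01 against 0.911 over all pairs. Scaled to both bins' own level the sum was at 1.01. By role, the mean O/E of both maps was 1.32 for transsulfuration and glutathione genes (1.54 and 1.10 in the maps), 1.14 for homocysteine and methionine synthesis, 1.13 for sulfate reduction, 0.956 for the AdoMet cycle and 0.951 for uptake. By gene, MET28 had 1.22, MET30 1.17, MET32 1.11, MET31 1.08, MET4 1.01 and CBF1 0.863. Met30 acts with CDC53, SKP1, HRT1 and CDC34, and the 21 pairs of gene bins with these 4 had 51 contacts against 48.9 expected, with none called and 1 at an unadjusted exact Poisson p under 0.05.
Among the 28 gene pairs above 1 in both maps with at least 5 contacts or 5 expected contacts, the highest by mean O/E were MET30 with MET8, a siroheme synthesis gene (5 and 3 contacts, O/E 4.41 and 2.65), and MET31 with the bin of MMP1 and MHT1, which take up and use S-methylmethionine (4 and 2, O/E 4.63 and 2.40). CBF1 with CYS3, a cystathionine lyase gene (3 and 2), MET32 with SUL2 (4 and 1) and MET4 with SUL1 (4 and 5), both sulfate permease genes, followed. The best supported was MET28 with MET3, the gene of ATP sulfurylase, at 15 and 16 contacts against 8.12 and 7.46 expected (O/E 1.85 and 2.14, exact Poisson p = 0.000742, adjusted p = 0.460). This pair was chosen after its values were seen, and its expectation is subject to the same factor of 1.18. Only 3 pairs below 1 in both maps had that many contacts or expected contacts. They were MET30 with MET6, methionine synthase (0 and 1 against 2.70 and 2.56), MET30 with MET3 (1 and 1 against 2.97 and 2.87) and MET30 with MET22, a nucleotidase of the sulfate pathway (2 and 2 against 2.56 and 2.48). Pairs with fewer expected contacts reached lower values, and 23 of 159 gene pairs had 0 contacts in both maps, each with at most 3.61 expected.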

How the data were processed

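Per the labels, the authors processed the libraries with HiC-Pro on the sacCer3 build, and deposited the signal between bins of 10 kb after iterative correction (ICE), which scales every bin to the same total. The sources used here give no read filters. The deposited bin table lists bin coordinates and equals the R64 chromosome lengths. Whole contacts were recovered by removing each bin's factor (all within 0.01 of a whole number). Bins needed values with at least a share of 0.5 of partners on other chromosomes in both maps, and 1086 passed, the 6 gene bins among them. This filter dropped 41 of 64 bins within 20 kb of a centromere.

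Between chromosomes, the expected signal was the mean over pairs that share both centromere distance classes (edges 0, 20, 50, 100, 200, 300 and 500 kb, with bins at most 30 kb from an end apart), and within chromosomes the mean at the same distance. limma 3.58.1 (R 4.3.3, trend on expected contacts) tested log2 O/E with a pseudocount of 0.5 contacts against 0 over 2 maps. At least 10 expected contacts per map were required. The planned minimum of 5 made too many false calls on simulated maps and was raised after the counts of calls at 5 had been seen. P-values test the departure of a value from its expectation within these maps. Those of limma rest on the spread over 2 replicates that the study's methods call biological. This spread was drawn largely from all values with like expected contacts, so an SE can be smaller than the spread of a value's own maps. MET28 with MAM33 and RPS24B, at an O/E of 0.952 and 0.261, has an SE of 0.31 in log2. These p-values do not measure how unusual a locus is among others, which ranks among like bins or pairs describe where given. Named loci were all 6 genes, called values, the most alike profiles, and the 5 highest and 3 lowest pathway pairs. Bins were also named from among the 3 highest trans and far-cis bins above 1 in both maps with at least 5 contacts. Members, lists and tests were chosen with earlier results of these data known. Alternatives are given in the closing section.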

Additional observations from a re-analysis of the deposited data

How the results depend on the processing

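No paired analysis was possible because both maps belong to 1 group. Of the sum over pairs among the 6 genes, O/E of 1.46 became 1.32 with a balance from contacts between chromosomes, 1.32 with the expectation scaled to both bins' own level, 1.33 with MET30 in the bin of its end (both chosen after seeing the data) and 1.09 over blocks of 3 by 3 bins, and it stayed between 1.40 and 1.53 with either map alone. The pathway sum of 1.10 was 1.11 against the overall mean between chromosomes, 1.00 with the balance between chromosomes, 1.15 with no filter on bins, 1.04 over blocks of 3 by 3 bins and 1.01 with scaled levels. With the balance between chromosomes the level was 47.2% for MET28, 42.1% for MET30, 35.8% for CBF1, 33.6% for MET4 and 21.7% for MET32, and with MET30 in the bin of its end its level was 36.6%. Pairs of the gene bins within chromosomes called lower numbered 24, against 42 at the planned minimum of 5 expected contacts, where more pairs are tested (20.9% of them, against 19.5% of all pairs), and 68 with the balance between chromosomes (52.7%, against 33.6% of all pairs). The 245 pairs called between chromosomes were 5195 against the overall mean and 97 to 105 with either map alone, and 0 pairs among the 6 genes were called under each. The cause was not tested for the shifts with balance, blocks and levels. Depth limits single pairs between chromosomes: at 1 expected contact, 8 would be needed for a call.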
